A study of Homo sapiens with 8 samples.

Results

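The actin cytoskeleton genes described here are linked to serum response factor (SRF) and to its coactivators MRTFA and MRTFB, and they were followed in the MDA-MB-231 line, mesenchymal-like human breast cancer cells that lack hormone receptors and HER2 amplification. They were taken as a list of 40 gene symbols grouped by function. The rule that gives a gene its value uses its symbol and brightest probe set but no difference between the substrates. This list and those of further genes were chosen with earlier results of these data known. Shares of listed genes set beside those of all genes are therefore descriptions and not independent results. A gene counted as measured when at least 1 probe set carried its symbol alone, and its brightest probe set over the 8 arrays gave its value. This found 33 of the 40 members, out of 19775 genes named on the array, and 92 probe sets for them. ACTG1, ACTR2, FLNA, FLNC, FHL1, WDR1 and CAP1 had no probe set carrying that symbol alone in the annotation used here. The cells were grown for 2 days on a soft substrate (4 biological replicates, A to D) or on a stiff substrate (4 biological replicates, A to D), both in DMEM/F12 medium with serum. How stiff either substrate was is not stated in the labels, and all arrays are of this 1 line. The series title names mechanical cues, mevalonate and RhoA.

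SRF is a transcription factor that binds a short DNA element, the CArG box, and needs a partner protein to choose its target genes. The MRTF coactivators bind monomeric actin through their RPEL motifs, which holds them in the cytoplasm. When actin assembles into filaments the monomer pool shrinks, and MRTF enters the nucleus and drives SRF targets, many of which encode actin itself and proteins that bind it. RhoA promotes filament assembly and so acts upstream of this loop. In breast cancer cells the pathway is known for its part in motility and in the response to the mechanics of the matrix.

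CArG boxes were found by their pattern in the 250 bases before the RefSeq start sites (GRCh38.p14). The reverse complement of the pattern is the pattern itself, so 1 search covers both strands. Of the 28 measured members with an entry, 5 (17.9%) held a box, against 1.55% of 15384 measured genes with an entry. The members were listed for their link to SRF, itself among the 5, so the larger share is not an independent result. The sequences below are shown because they are the binding element that gives the pathway its name; each is printed on the gene's strand, with the box in capitals.
SRF: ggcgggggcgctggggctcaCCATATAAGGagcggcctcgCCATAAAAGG
CNN2: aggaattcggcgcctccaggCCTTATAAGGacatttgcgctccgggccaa
ACTN1: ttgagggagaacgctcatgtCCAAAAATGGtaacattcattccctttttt
MYO1E: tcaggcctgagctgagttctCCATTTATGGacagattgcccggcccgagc
FHL2, downstream start site: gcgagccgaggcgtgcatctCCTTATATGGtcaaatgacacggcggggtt
FHL2, upstream start site: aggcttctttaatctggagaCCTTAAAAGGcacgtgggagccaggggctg
ACTG1: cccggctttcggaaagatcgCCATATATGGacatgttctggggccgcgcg
The SRF stretch lies at chr6:43171219-43171268 on the plus strand and holds a pair of boxes. That of CNN2 lies at chr19:1026499-1026548 on the plus strand. Those of ACTN1 (chr14:68977708-68977757), MYO1E (chr15:59372873-59372922), FHL2 (chr2:105399081-105399130 and chr2:105438585-105438634) and ACTG1 (chr17:81512864-81512913) lie on the minus strand. FLNA and FHL1, which were not measured, also held a box. ACTB, FSCN1, TAGLN, PFN2 and ARPC1B had no entry. A match is a description of these letters and not evidence of binding. Only exact matches within 250 bases were taken, so the lack of one, as in ACTA2, is not evidence against binding. None of the 5 measured members with a box passed the threshold between soft and stiff. Their soft minus stiff differences ran from -0.14 (FHL2) to 0.12 (MYO1E) on the log2 scale.

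Values are log2 RMA levels, so a difference of 1 is a doubling, and p-values are from limma over 54613 probe sets with Benjamini-Hochberg adjustment and a threshold of 0.05. Correlations between arrays ran from 0.9932 to 0.9982, and no pair of arrays was identical. Soft and stiff parted on the first principal component (40.4% of the variance). On the second (16.4%) the stiff arrays formed pairs, A with B and C with D, called stiff A/B and stiff C/D below. A background level of 6.17 was taken from genes silent in breast cells, and 32 of the 33 members lay above it, all but CNN1. All 5 markers of a mesenchymal-like breast line lay above background, vimentin (VIM) at 14.59 to 14.61 on soft and 14.48 to 14.61 on stiff arrays. Of 10 luminal epithelium markers 7 lay above background, with CDH1, FOXA1 and PGR below it. The mean level of the mesenchymal list was 13.13 to 13.20 on soft and 13.27 to 13.29 on stiff arrays, with AXL past the threshold (difference -0.23, adjusted p = 0.0318). That of the luminal list was 8.33 to 8.40 on soft and 8.18 to 8.27 on stiff arrays, with TFF1 (difference 1.12, adjusted p = 0.000519) and KRT19 (0.35, adjusted p = 0.0106) past the threshold. The part of either list in the results below was not tested. Of the smooth muscle markers 3 of 7 lay above background, of the fibroblast markers 1 of 6 and of the white blood cell markers 2 of 4, with none past the threshold. Of those last 2, CD3D (mean 6.23 on soft, 6.12 on stiff) was also among the genes taken as silent that set the background level. Its place above that level is therefore no sign of expression. Arrays of bulk RNA cannot tell fewer cells of a type from less RNA per cell, and RMA equalises the arrays, so a change in total RNA per cell is not seen.

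Of the measured members only ACTB passed the threshold at its brightest probe set. On soft, 1 of 33 (3.03%) was higher, and none was lower by limma, against 4.39% of all genes higher, 5.93% lower and 10.3% in either direction. Of genes above background, where 32 of the 33 members lay, 6.95% were higher, 9.58% lower and 16.5% either. At an unadjusted p under 0.05 the members gave 8 higher (24.2%) and 1 lower (3.03%), against 11.3% and 13.6% of all genes. Among genes above background these shares were 14.9% and 21.0%. The median member difference was 0.04, and that of all genes was 0.0075. Differences were positive for 23 members, negative for 9 and 0 for ARPC3, over a range of -0.25 (CNN3) to 0.37 (FSCN1). The 95% confidence interval lay within 0.5 log2 units of 0 for 32 of the 33, all but FSCN1, whose interval reached 0.60. In simulated data 100 of 54613 probe sets changed by 0.5 and 100 by 1, and the fit recovered 57% and all of these. The real arrays gave 5061 called probe sets (9.27%), so the simulated cut-off was stricter and 57% is not the sensitivity here. Differences under 0.5, as in all members at their brightest probe set, were not simulated and can be missed.

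**Figure D1:**
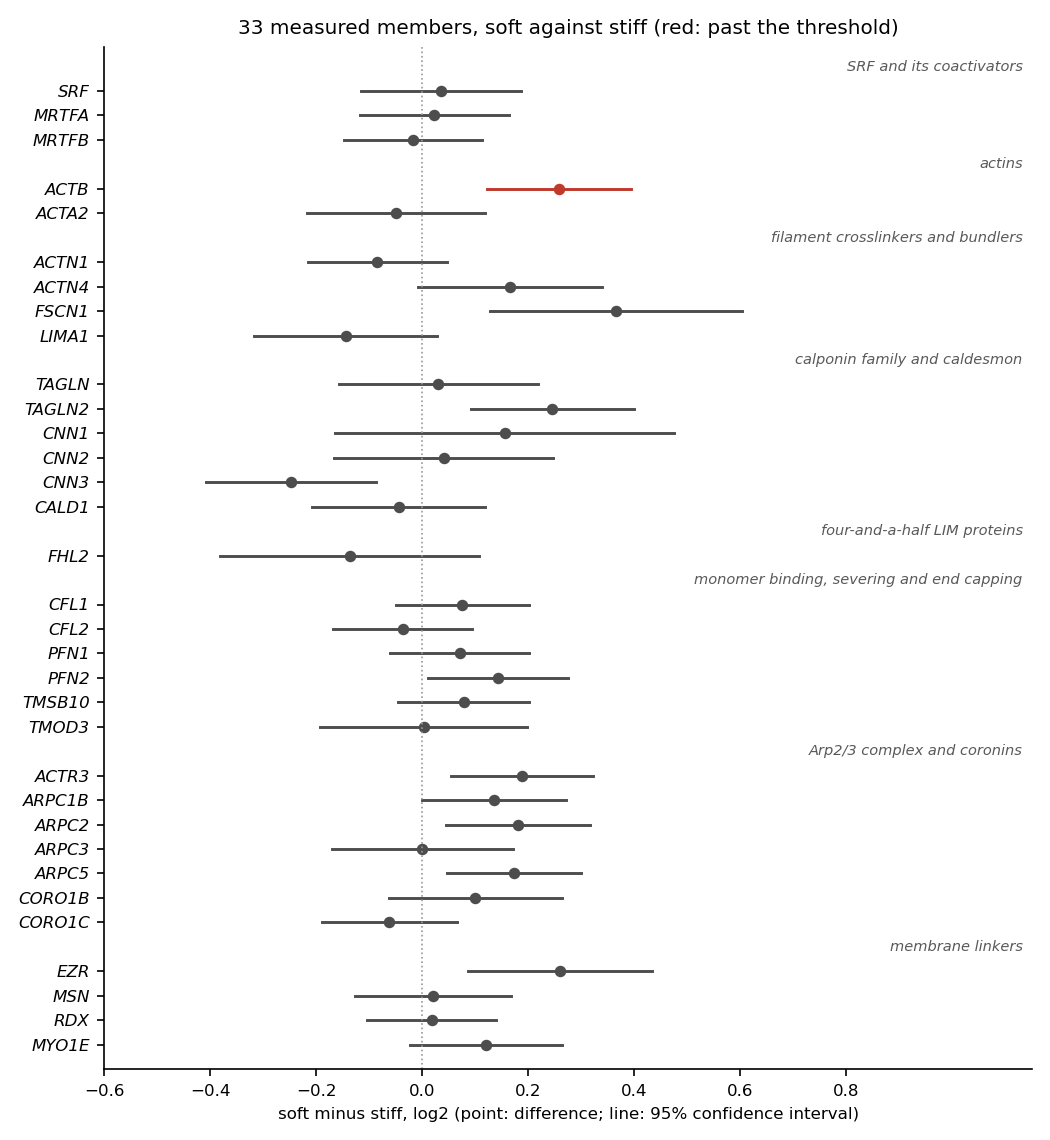
Soft minus stiff difference (log2) of each measured member, with its 95% confidence interval as a line, grouped by role. ACTB, in red, is the member past the threshold, at 0.26, and FSCN1 has the interval reaching furthest from 0, to 0.60.

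The arrays of the substrates did not overlap for 11 members (33.3%), against 19.9% of all genes and 31.0% of genes above background. Soft lay above stiff for 10 of them (30.3%, against 8.78% of all genes and 13.1% of genes above background): ACTB, FSCN1, TAGLN2, PFN2, TMSB10, ACTR3, ARPC1B, ARPC2, ARPC5 and EZR. Soft lay below stiff for CNN3 alone (3.03%, against 11.2% and 17.9%). As the members were chosen with earlier results of these data known, these shares are a description and not an independent result. Adjusted p lay between 0.05 and 0.1 for 7 members: TAGLN2, FSCN1, EZR, ACTR3, ARPC5 and ARPC2 with positive differences, and CNN3 with a negative one. Another variance model, trended and robust, moved the calls to 7 higher (21.2%) and 1 lower (3.03%), against 6.11% and 8.89% of all genes in that fit, so the number called depended on the fit.

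**Figure D2:**
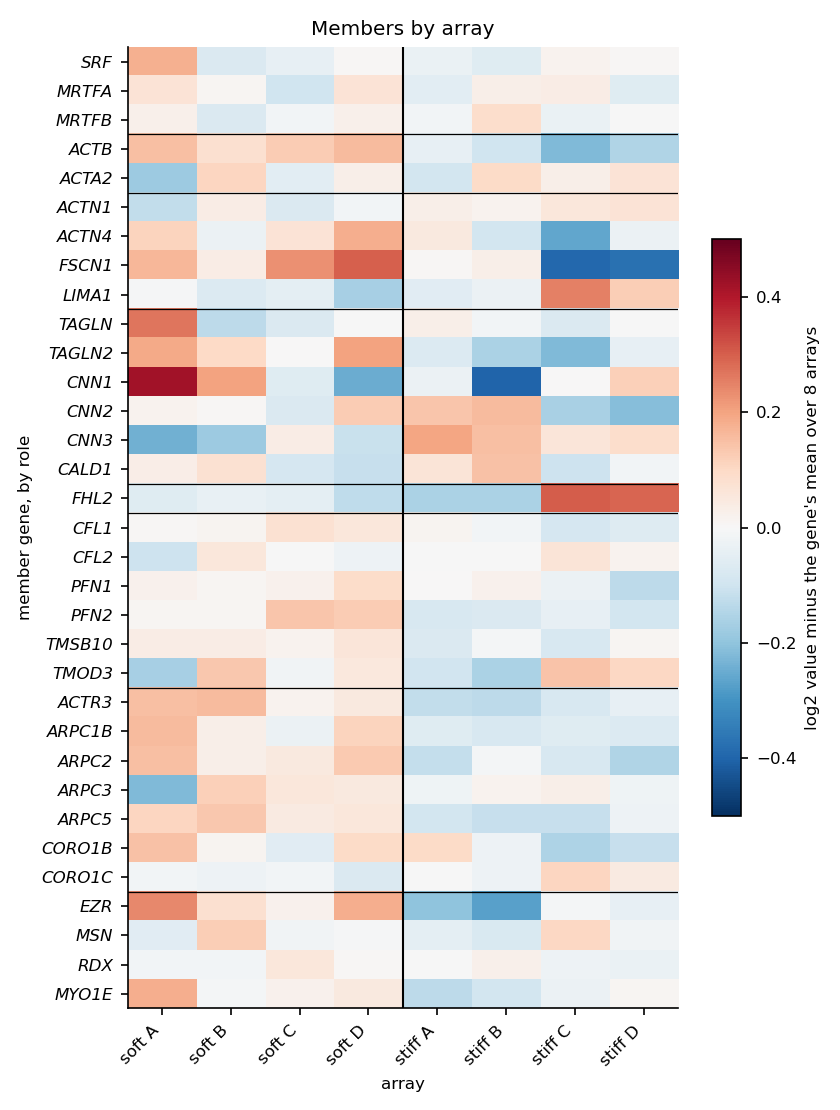
Log2 value of each member in each array minus that gene's mean over the 8 arrays, by role, soft arrays on the left. ACTB is above its mean on all 4 soft arrays, and FHL2 is high on stiff C and D only, at 11.03 and 11.02.

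SRF and its coactivators did not pass the threshold. SRF had 9.16, 8.91, 8.94 and 8.99 on soft, against 8.95, 8.92, 9.0 and 8.99 on stiff. The groups overlapped, and the difference was 0.035 (95% CI -0.12 to 0.19, adjusted p = 0.821). MRTFA, a coactivator held by actin monomers, had 7.48, 7.42, 7.31 and 7.48 on soft, against 7.36, 7.44, 7.45 and 7.35 on stiff, a difference of 0.022 (95% CI -0.12 to 0.16, adjusted p = 0.88). MRTFB, its relative, had 9.21, 9.11, 9.17 and 9.21 on soft, against 9.17, 9.27, 9.15 and 9.18 on stiff, a difference of -0.018 (95% CI -0.15 to 0.11, adjusted p = 0.902). Both coactivators overlapped between the substrates. The activity of MRTF is set largely by where the protein is in the cell, which RNA arrays do not measure.

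Among the actins, ACTB (cytoplasmic beta-actin) rose on soft. Its values were 14.15, 14.08, 14.13 and 14.16 on soft, against 13.96, 13.90, 13.78 and 13.85 on stiff, with no overlap. The mean was 14.13 ± 0.036 on soft and 13.87 ± 0.076 on stiff (SD, n = 4 each), a 1.195-fold difference (log2 0.26, SE 0.061, adjusted p = 0.025). All 3 ACTB probe sets passed the threshold, at 0.24 to 0.27, and all are marked as holding probes shared with other transcripts. The call of the brightest was lost in 8 of 18 alternative settings, among them the fits with only stiff A/B (difference 0.20, adjusted p = 0.175) or only stiff C/D (0.32, adjusted p = 0.0511), and those without soft A, soft D, stiff B, stiff C or stiff D. The 9 probe sets shared by ACTB and ACTG1 gave 14.33 to 14.47 on soft and 14.19 to 14.35 on stiff. None of the 9 was past the threshold (differences 0.092 to 0.18, adjusted p = 0.069 to 0.364), although soft lay above stiff without overlap in all 9. The highest value on an array was at least 14.72, so these levels lie near the top of the scale. ACTG1 therefore has no value of its own here. ACTA2, the smooth muscle actin and a classical MRTF target, had 6.27, 6.56, 6.40 and 6.48 on soft, against 6.36, 6.55, 6.48 and 6.52 on stiff, near background (difference -0.05, adjusted p = 0.762).

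Of the crosslinkers and bundlers, 4 of 6 were measured (FLNA and FLNC were not) and none passed the threshold. FSCN1 (fascin, which bundles filaments in protrusions of invasive cells) had 8.03, 7.90, 8.09 and 8.16 on soft, against 7.87, 7.89, 7.47 and 7.49 on stiff. Soft lay above stiff in every array, narrowly over stiff A/B (difference 0.37, SE 0.11, adjusted p = 0.0588). Against stiff C/D it was 0.57 (adjusted p = 0.0138), and against stiff A/B 0.17 (adjusted p = 0.376). The other FSCN1 probe set, also above background, overlapped between the substrates (difference 0.21, adjusted p = 0.323). The mean of both gave 0.29 (adjusted p = 0.102). ACTN4 (alpha-actinin) differed by 0.17 (adjusted p = 0.24) and ACTN1, another alpha-actinin, by -0.085 (adjusted p = 0.449). The other 3 ACTN1 probe sets, also above background, had positive differences of 0.11 to 0.19 (adjusted p = 0.186 to 0.469), and the mean of all its probe sets gave 0.099 (adjusted p = 0.328), so its sign depended on the probe set. LIMA1 (EPLIN, which stabilises filaments) differed by -0.15 (adjusted p = 0.311). Its second probe set above background differed by -0.08 (adjusted p = 0.603). A further LIMA1 probe set had 5.43, 5.25, 5.54 and 5.63 on soft, against 6.04, 6.12, 6.14 and 6.0 on stiff, so all 8 values lay under the background level of 6.17 (difference -0.61, adjusted p = 0.00176).

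The calponin family and caldesmon bind along filaments. All 6 were measured and none passed the threshold. TAGLN2 (transgelin-2) had 12.65, 12.56, 12.46 and 12.66 on soft, against 12.39, 12.30, 12.24 and 12.42 on stiff, without overlap (difference 0.25, SE 0.070, adjusted p = 0.0521), and its other probe set rose by 0.36 (adjusted p = 0.00837). Against stiff A/B alone that other probe set did not pass (adjusted p = 0.0795). CNN3 (calponin-3) ran the other way, with 11.82, 11.88, 12.10 and 11.95 on soft, against 12.26, 12.21, 12.12 and 12.15 on stiff. Its difference was -0.25 (SE 0.073, adjusted p = 0.0578). Its dimmer probe set fell, with 9.47, 9.64, 9.88 and 9.80 on soft, against 10.22, 10.17, 10.22 and 10.08 on stiff (difference -0.47, SE 0.089, adjusted p = 0.00832). Against stiff C/D alone this dimmer probe set did not pass (adjusted p = 0.0736). TAGLN (SM22-alpha), CNN1, CNN2 and CALD1 differed by 0.03, 0.15, 0.04 and -0.045 (adjusted p = 0.591 to 0.88). TAGLN lay at 6.60 to 7.0 on soft and 6.66 to 6.76 on stiff, and CNN1 lay under background. Both are smooth muscle markers and SRF targets. The other TAGLN probe sets lay under background, with differences of -0.35 (adjusted p = 0.0572) and -0.205 (adjusted p = 0.132). The mean of all TAGLN probe sets gave -0.17 (adjusted p = 0.108), so the sign for TAGLN depended on the probe set. FHL2, a LIM protein that is an SRF target and cofactor, had 10.67, 10.69, 10.68 and 10.60 on soft, against 10.57, 10.57, 11.03 and 11.02 on stiff. Soft lay between the stiff pairs. The difference was -0.14 with all arrays (adjusted p = 0.522), -0.37 against stiff C/D (adjusted p = 0.0302) and 0.09 against stiff A/B (adjusted p = 0.585).

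The proteins that bind monomers, sever filaments or cap their ends had 6 of 8 members measured, with none past the threshold. CFL1 and CFL2 (cofilins, which sever filaments) differed by 0.075 and -0.038. PFN1 and PFN2 (profilins, which supply monomers to growing ends) differed by 0.07 and 0.14. TMSB10 (thymosin beta-10, a monomer sequestering peptide) and TMOD3 (tropomodulin-3, which caps pointed ends) differed by 0.077 and 0.0025. A further CFL1 probe set rose, with 10.97, 10.87, 10.96 and 11 on soft, against 10.61, 10.70, 10.59 and 10.47 on stiff (difference 0.36, SE 0.067, adjusted p = 0.00835). Against stiff A/B alone this probe set did not pass (adjusted p = 0.0689). The brightest CFL1 probe set did not pass the threshold with all arrays (adjusted p = 0.492).

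The Arp2/3 complex nucleates branched filaments, and coronins remove it from them. Of 8 members 7 were measured, and none passed the threshold. ACTR3 (Arp3) had 13.67, 13.68, 13.54 and 13.57 on soft, against 13.40, 13.39, 13.44 and 13.48 on stiff, without overlap (difference 0.19, SE 0.061, adjusted p = 0.0833). Of its 5 probe sets all had soft above stiff, and 2 passed the threshold, at 0.33 (adjusted p = 0.0126) and 0.23 (adjusted p = 0.0403). The first did not pass against stiff A/B alone (adjusted p = 0.0963). The second passed against neither stiff pair alone (adjusted p = 0.149 and 0.164) and lost its call in 12 alternative settings. ARPC2 differed by 0.18 (adjusted p = 0.0988) and ARPC1B by 0.14 (adjusted p = 0.218), both subunits, without overlap. The other 2 ARPC2 probe sets overlapped between the substrates, at 0.048 (adjusted p = 0.734) and -0.052 (adjusted p = 0.664), and the mean of all 3 gave 0.058 (adjusted p = 0.463). ARPC5 (a subunit) had 12.82, 12.85, 12.76 and 12.77 on soft, against 12.62, 12.60, 12.60 and 12.69 on stiff (difference 0.17, adjusted p = 0.0913), and another probe set of it rose by 0.32 (adjusted p = 0.0145). That other ARPC5 probe set did not pass against stiff A/B alone (adjusted p = 0.11). ARPC3 (a subunit) differed by 0 (95% CI -0.17 to 0.17), CORO1B by 0.10 (adjusted p = 0.481) and CORO1C by -0.063 (adjusted p = 0.588).

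The membrane linkers are the ezrin, radixin and moesin family, which tie filaments to the plasma membrane, and the class I myosin MYO1E. EZR (ezrin) had 12.08, 11.92, 11.86 and 12.02 on soft, against 11.64, 11.57, 11.83 and 11.80 on stiff at its brightest probe set (difference 0.26, SE 0.079, adjusted p = 0.0652). This was 0.36 against stiff A/B (adjusted p = 0.0499) and 0.16 against stiff C/D (adjusted p = 0.369). Its other 4 probe sets were all past the threshold. The one with the widest gap had 12.43, 12.11, 12.30 and 12.29 on soft, against 10.97, 11, 11.07 and 11.23 on stiff, a 2.32-fold difference (log2 1.21, SE 0.083, adjusted p = 6.11e-05). This was 1.30 against stiff A/B and 1.13 against stiff C/D, and it stayed past the threshold in all 17 alternative settings. The other 3 differed by 0.40 (adjusted p = 0.0177), 0.31 (adjusted p = 0.0307) and 0.34 (adjusted p = 0.0135), so the probe sets of this 1 gene ran from 0.26 to 1.21. Of these 3, the first was 0.31 against stiff C/D alone (adjusted p = 0.122) and the second 0.18 (adjusted p = 0.209), while the last was 0.29 against stiff A/B alone (adjusted p = 0.0835), so each lost its call against 1 stiff pair. MSN (moesin) and RDX (radixin) differed by 0.02 and 0.018 (adjusted p = 0.9 and 0.893), with 95% intervals of -0.13 to 0.17 and -0.10 to 0.14. MYO1E differed by 0.12 (adjusted p = 0.312).

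**Figure D3:**
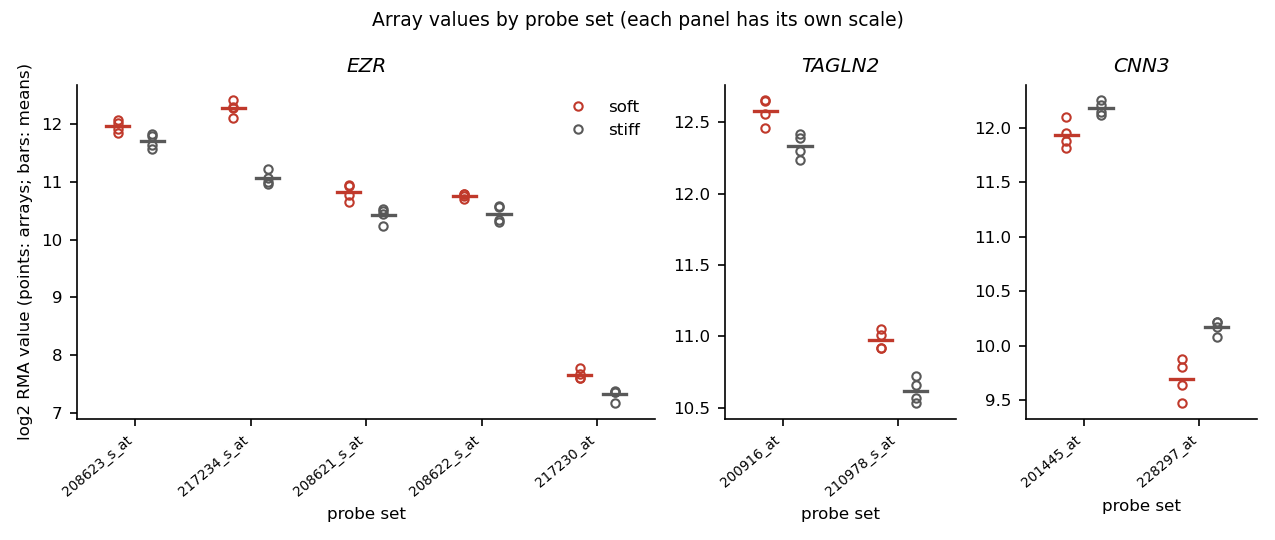
Log2 RMA value of each array (points) and group means (bars) for every probe set of EZR, TAGLN2 and CNN3, with soft in red left of stiff in grey. The second EZR probe set shows the widest gap, with soft at 12.11 to 12.43 and stiff at 10.97 to 11.23.

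Over all 92 probe sets of the members, 12 (13.0%) were called higher and 2 (2.17%) lower, against 4.64% and 4.63% of all 54613 probe sets (9.27% in either direction). Above background this was 12 (17.9%) and 1 (1.49%) of 67, against 8.32% and 8.71% (17.0% in either direction). Probe sets of a gene are not independent, and 4 of the 12 were of EZR and 3 of ACTB. In all, 8 members had a probe set past the threshold, 7 of them one above background. Of those 7, ACTB, EZR, TAGLN2, CFL1, ACTR3 and ARPC5 rose and CNN3 fell, and LIMA1 passed only at the probe set under background. For all 8 but ACTB the brightest probe set did not pass. Of all genes 16.0% had any probe set past it, and 23.3% of those with several probe sets.

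**Figure D4:**
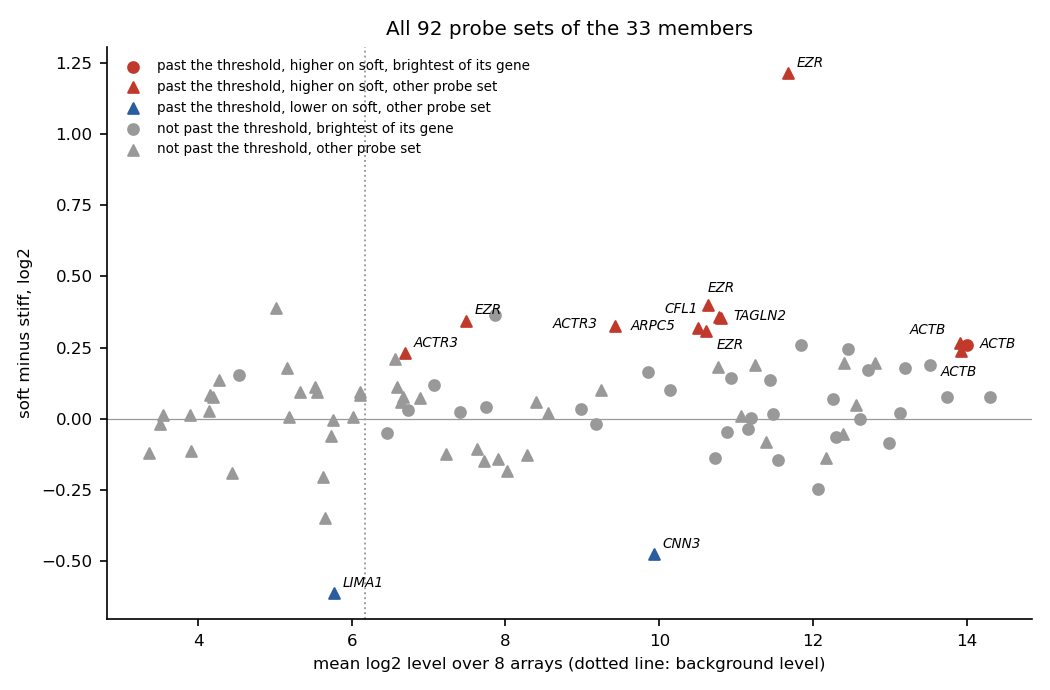
Soft minus stiff difference (log2) against mean level for the 92 probe sets of the 33 members, circles for the brightest of a gene and triangles for the others. An EZR probe set stands highest at 1.21, and LIMA1 lies lowest at -0.61, under the background level marked by the dotted line.

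Paralogs were compared by the difference of their changes within each array, with a two-sided exact permutation test over the 8 arrays. Of 18 pairs, 13 had both genes measured, and no pair passed the threshold after adjustment over the 13 pairs (smallest exact p = 0.0571, smallest adjusted p = 0.159). The smallest p such a test can give is 0.0286, so at least 8 of the 13 pairs would have to reach it together for any to pass, and a lone pair cannot be called in this design. The gap was 0.31 for ACTB over ACTA2, 0.24 for EZR over MSN and -0.25 for ACTN1 over ACTN4, each with adjusted p = 0.159. The ACTN1 gap rests on its brightest probe set, the only one of 4 with a negative difference. That of EZR also rests on its brightest probe set, which had the smallest difference of its 5 (range 0.26 to 1.21). Cofilins differed by 0.11 (adjusted p = 0.159) and MRTFA and MRTFB by 0.04 (adjusted p = 0.54).

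The stiff arrays fell into pairs for many members. Stiff A/B did not overlap stiff C/D for 21 of 33 members (63.6%), against 49.9% of all genes. Above background lay 32 of the 33 members but 58.8% of all genes. The share among genes above background was not worked out, so these 2 shares are not like for like. The widest differences, stiff A/B minus stiff C/D, were -0.46 for FHL2, 0.40 for FSCN1 and 0.34 for CNN2. FOS, an SRF target driven through ternary complex factors, showed the same pairing, with 7.79, 7.79, 7.65 and 7.72 on soft, against 6.77, 6.77, 8.04 and 8.13 on stiff. The labels give no batch, and what sets the pairs apart was not tested.

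Of 88 further genes of the pathway, 83 were measured, with 8 higher and 7 lower on soft (9.64% and 8.43%, against 4.39% and 5.93% of all genes) and a median difference of 0.057. Of the 83, 75 (90.4%) lay above background, against 58.8% of all genes. Those 75 gave 10.7% higher and 9.33% lower, against 6.95% and 9.58% of genes above background (16.5% in either direction). Among 15 further MRTF and SRF targets TGFB1I1 (Hic-5, a focal adhesion adaptor) rose by 0.33 (adjusted p = 0.00877), and CCN2 (-0.57, adjusted p = 0.00125), AMOTL2 (-0.51, adjusted p = 0.00359) and CCN1 fell, CCN1, CCN2 and AMOTL2 being known also as YAP/TAZ targets. None of 11 ternary complex factor genes passed the threshold by limma, and none had an unadjusted p under 0.05 with all arrays. For FOS and EGR1, both immediate early genes, soft lay between the stiff pairs. FOS differed by 0.97 against stiff A/B (adjusted p = 0.0012) and -0.35 against stiff C/D (adjusted p = 0.0488), EGR1 by 0.83 (adjusted p = 0.00149) and -0.39 (adjusted p = 0.0645). DUSP5, a phosphatase of ERK, differed by 0.36 against stiff A/B (adjusted p = 0.0417) and by 0 against stiff C/D. Of 9 MRTF regulators DDX19A fell by 0.22 (adjusted p = 0.0464), with -0.11 (adjusted p = 0.301) at its other probe set above background. Of 14 other Arp2/3, WAVE and WASP genes WASF2 (a WAVE protein that activates Arp2/3) rose by 0.95 (adjusted p = 0.000336), with 0.37 (adjusted p = 0.0304) and 0.16 (adjusted p = 0.186) at its other probe sets. WIPF2 rose by 0.26 (adjusted p = 0.0416) and ARPC5L, an isoform of ARPC5, fell by 0.26 on the log2 scale (adjusted p = 0.0189). Other WIPF2 probe sets ran from 0.0975 (adjusted p = 0.362) to 0.315 (adjusted p = 0.0173). Of 18 turnover and capping genes 3 were called higher, CAPG (a capping protein) by 0.54 (adjusted p = 0.00649) and DSTN (destrin, a relative of cofilin) by 0.25 (adjusted p = 0.0229) among them. Of 16 crosslinkers and linkers NHERF1, which binds ezrin, rose by 0.49 (adjusted p = 0.00937) and MYO1C by 0.22 (adjusted p = 0.0431). Other MYO1C probe sets gave 0.0575 (adjusted p = 0.642) and 0.29 (adjusted p = 0.0284). NF2 (merlin, a relative of ezrin) fell by 0.29 (adjusted p = 0.0124) and ENAH by 0.26 (adjusted p = 0.0242). None of the other ENAH probe sets passed (adjusted p = 0.0572 to 0.846). Against either stiff pair alone DDX19A, WIPF2, ARPC5L, MYO1C, NF2 and ENAH did not pass (adjusted p = 0.0572 to 0.181). TGFB1I1 (adjusted p = 0.0849) and DSTN (adjusted p = 0.166) did not pass against stiff C/D alone. CAPG (adjusted p = 0.0629) and NHERF1 (adjusted p = 0.0806) did not pass against stiff A/B alone. CCN1, CCN2, AMOTL2 and WASF2 passed against each stiff pair.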

How the data were processed

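Total RNA of 8 arrays (4 soft, 4 stiff) was used. The deposited values are log2 RMA levels, per the submitters' processing notes for RMA and per the values themselves for the log2 scale; no source used here gives the RMA version or the probe definition. Of 54675 probe sets, 62 controls were left out and 54613 tested with limma 3.58.1 (R 4.3.3; lmFit, eBayes without trend, two-sided), adjusted over all of them. Annotation gave 41091 probe sets 1 symbol, 1801 several and 11721 none. The background level was the 95th percentile of 14 measured silent genes. Members and lists were chosen with earlier results of these data known. All members are named, with full values for those past the threshold, for SRF, MRTFA, MRTFB and the actins; from other lists up to 2 genes per direction are named, with CCN1, FOS, EGR1 and DUSP5 added after their values were seen. Simulated data had 54613 probe sets, 100 changed by 0.5 and 100 by 1 log2 unit. The fit recovered 57% and 100% of these, with 7 false calls. The replicates are biological per the labels, which do not describe separate cultures, so the p-values reflect only the spread among these 8 arrays, whose number limits the precision. Alternatives were a replicate block, other scalings, filters, variance models and thresholds, the mean of all probe sets, probe sets without shared-probe marks, either stiff pair alone, and leaving out each array.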

Additional observations from a re-analysis of the deposited data

Results flagged for a closer look

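In 92 groups of 4 arrays checked, 4 had an array far from the other 3 (Dixon's criterion), where chance gives about 1 in 20 groups, or 4.6. They were an ACTB probe set other than the brightest on soft B (13.97), PFN1 on soft D (12.35), CORO1C on soft D (12.23) and the dimmest EZR probe set on stiff C (7.16).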

How the results depend on the processing

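Under the alternatives the median difference of the members ranged from 0.02 to 0.0775. With all arrays, 1 member was called higher on soft (ACTB) and none lower. In what follows the shares of all genes tested that were called higher and lower in the same fit stand in parentheses. Above background alone 7 members were higher and 1 lower (11.4% and 15.9%), and the trended robust variance also gave 7 and 1 (6.11% and 8.89%). The mean of all probe sets gave 5 and 2 (5.06% and 6.47%), cyclic loess 2 and 0 (4.95% and 5.46%), repeated quantile normalization 3 and 0 (4.67% and 5.82%), and probe sets without shared-probe marks 2 and 0 of 23 (3.52% and 4.87%). At adjusted p under 0.1 there were 7 and 1 (6.59% and 8.77%), and under 0.01 there were 0 and 0 (1.61% and 1.44%). Stiff C/D alone gave 1 and 1 (2.27% and 1.96%), FSCN1 higher and FHL2 lower, and stiff A/B alone 1 and 0 (2.92% and 2.66%), EZR higher. Leaving out 1 array gave 0 to 2 higher and 0 to 1 lower (5.52% to 10.3% of genes in either direction). The replicate block gave 0 and 0, with 7.34% of all genes called and ACTB at adjusted p = 0.0585. Deviations of arrays with the same letter correlated at -0.118 to 0.122, which cannot decide whether the letters pair the arrays. The sample titles give the letters but state no pairing. Member probe sets were 20 higher and 2 lower above background, and 20 higher and 4 lower with the trended variance. They were 4 higher and 1 lower without shared-probe marks, and 7 to 12 higher and 2 to 3 lower without 1 array. Against stiff A/B 4 were higher, and a LIMA1 and a CNN3 probe set were lower. Against stiff C/D 7 were higher, and a LIMA1 and the FHL2 probe set were lower. Shares of all probe sets called in these fits were not worked out, so these counts cannot be set against them. The cause of these shifts was not tested.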
